A study of Homo sapiens with 2 samples.

Results

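The miR-17-92 polycistron was examined in HepG2 cells, a human hepatocellular carcinoma line, 48 h after an adenoviral vector was given that overexpresses an ultraconserved transcript (called overexpression from here on) or after the control vector Ad-NC. Its members, 9 mature miRNAs cut from the MIR17HG transcript, were taken by name. The V21.0 human miRNA array of Agilent held 2549 human miRNAs. All probes and spots of the members were read, and outlier spots and probes not measured on both arrays were then left out of the differences. The members were hsa-miR-17-5p, hsa-miR-17-3p, hsa-miR-18a-5p, hsa-miR-18a-3p, hsa-miR-19a-3p, hsa-miR-20a-5p, hsa-miR-20a-3p, hsa-miR-19b-3p and hsa-miR-92a-3p, covered by 21 probes and 180 spots on each array. Each condition had 1 array, made from 200 ng of total RNA labelled with Cy3, and both arrays lay on the same slide and were read in the same scan. No difference between the conditions therefore has a replicate check, no p-value is given, and every spread below is a technical one between spots. The study asks which miRNAs differ when the transcript is overexpressed. The name overexpression rests on the title of the deposited data and on the paper's text, since the sample labels name the vector without saying what it does, and each direction given rests on it.

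MIR17HG is a noncoding host gene whose primary transcript folds into a row of hairpins. Drosha cuts each hairpin out in the nucleus and Dicer trims it in the cytoplasm to a pair of strands, the 5p and the 3p arm, of which 1 is usually kept by Argonaute and the other degraded. The kept strand finds its targets mainly through the seed, bases 2 to 8 from its 5′ end. MYC drives this transcript, and the cluster, also called oncomiR-1, is amplified in B-cell lymphoma and is known for raising proliferation. Its miR-17 products target the cell cycle inhibitor CDKN1A. The hairpins are transcribed together, whereas processing and decay act on each hairpin and each strand.

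The 6 hairpins lie on the plus strand of chromosome 13 within 787 bases (RefSeq, GRCh38.p14), in the order MIR17, MIR18A, MIR19A, MIR20A, MIR19B1 and MIR92A1. The mature sequences of the members, from RefSeq, are given first, because the comparison by seed turns on them. Capitals mark the seed, and the members are grouped by it.
hsa-miR-17-5p: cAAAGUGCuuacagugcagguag
hsa-miR-20a-5p: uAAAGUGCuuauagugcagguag
hsa-miR-18a-5p: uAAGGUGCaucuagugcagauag
hsa-miR-19a-3p: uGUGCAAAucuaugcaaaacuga
hsa-miR-19b-3p: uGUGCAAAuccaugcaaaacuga
hsa-miR-92a-3p: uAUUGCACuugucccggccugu
hsa-miR-17-3p: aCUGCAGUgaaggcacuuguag
hsa-miR-20a-3p: aCUGCAUUaugagcacuuaaag
hsa-miR-18a-3p: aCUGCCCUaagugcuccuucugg

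Counted from 1 at the 5′ end, miR-19a-3p and miR-19b-3p differ by the single substitution U11C, outside the seed. From miR-17-5p to miR-20a-5p the substitutions are C1U and C12U, also outside the seed. The seed of miR-18a-5p (AAGGUGC) differs from that of miR-17-5p and miR-20a-5p (AAAGUGC) by 1 base, and miR-92a-3p shares its seed (AUUGCAC) with no other member. miR-19b-3p and miR-92a-3p have identical copies made from MIR19B2 and MIR92A2 on the X chromosome, so their signals cannot be assigned to chromosome 13 alone. The chromosome 13 hairpins of miR-19a-3p and miR-19b-3p, which share a seed, are shown next, with the annotated 5p and 3p arms in capitals.
MIR19A, chr13:91350891-91350972 (GRCh38.p14, plus strand): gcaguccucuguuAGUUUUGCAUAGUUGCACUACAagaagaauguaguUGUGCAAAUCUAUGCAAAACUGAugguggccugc
MIR19B1, chr13:91351192-91351278 (GRCh38.p14, plus strand): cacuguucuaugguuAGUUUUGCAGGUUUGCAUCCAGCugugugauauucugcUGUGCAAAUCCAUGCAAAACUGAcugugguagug

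Of the 9 members, 8 were measured on both arrays, by 16 of the 21 probes. A probe counted as measured when at least 50% of its spots were well above background on both arrays, as the scanner software marks them. Over all miRNAs this held for 229 of 2549, by 393 probes. The remaining member, miR-18a-3p, stayed at background on both arrays: none of the spots of its 4 probes passed, and its brightest spot reached 5.16 with Ad-NC against 5.84 with overexpression. The limits, taken as the dimmest spot marked well above background, were 21.1 and 17.3. Signals are intensities after background subtraction. For the comparison they were set to log2 and scaled by the 75th percentile over the measured probes of each array, which was 304.6 for Ad-NC and 356.5 for overexpression. This scaling lowers every difference by 0.23 relative to the unscaled signals. A difference is given as log2 of overexpression over Ad-NC, averaged over the measured probes of a miRNA.

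As a check of the labelled cell line, 3 of 4 miRNAs of liver cells (miR-192-5p, miR-194-5p and miR-148a-3p) were well above background on both arrays. The hepatocyte miRNA miR-122-5p was not, its brightest probe having a mean of 5.09 with Ad-NC and 5.08 with overexpression. None of the 3 miRNAs of blood cells, the 3 of muscle, the 2 of neurons and the 2 of smooth muscle and fibroblasts were above background on either array, and their summed signal ranged from −0.18 to 16.5. The part of other cells in the results was not tested.

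The members of this 1 transcript did not share 1 difference. miR-19a-3p was 1.53-fold higher with overexpression, a log2 difference of 0.61, while the other 7 measured members lay between −0.30 and 0.06. Without the miR-19 pair, the 6 members of the other seeds lay within a range of 0.18, from −0.30 for miR-18a-5p to −0.12 for miR-92a-3p. Each of these 6 was at most 0.13 from the median of all 229 measured miRNAs, −0.17, around which the SD over miRNAs was 0.29. The median over the 8 measured members was −0.16, which is 0.0034 above the median of all. After scaling, 2 members were above 0 and 6 below, beside 60 of the 229 measured miRNAs above 0 (26.2%).

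At the 1.5-fold threshold that the paper names, 1 member was higher, beside 3 of the 229 measured miRNAs (1.31%), and 0 members were lower, beside 6 of 229 (2.62%). These counts over all miRNAs became 34 higher and 3 lower when all probes, dim ones included, gave the 75th percentile, and 6 higher and 4 lower without scaling. Of the 279 miRNAs with a value in each, 22 were higher and 8 lower by total signal, whereas 8 were higher and 24 lower by the authors' deposited log2 values. Relative to the median of all miRNAs, the members lay at the same places in both, with miR-19a-3p at 0.55. For the members these settings thus differ only by 1 constant. By size of difference, from the highest, miR-19a-3p was in place 3 of 229, miR-19b-3p in place 43, miR-92a-3p 94, miR-17-3p 103, miR-20a-5p 121, miR-17-5p 124, miR-20a-3p 157 and miR-18a-5p 163. The place of miR-19a-3p fell to 23 of 279 by total signal and by the deposited log2 values, and to 9 of 229 with its brightest probe alone. The side of 0 on which the 6 members of the other seeds lay depended on the scaling. Without it 4 of these 6 were above 0 (between 0.04 and 0.11), and with all probes in the percentile the median of the measured members was 0.32. A scaling by 1 constant per array leaves their distance from the median of all miRNAs as it is.

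**Figure D1:**
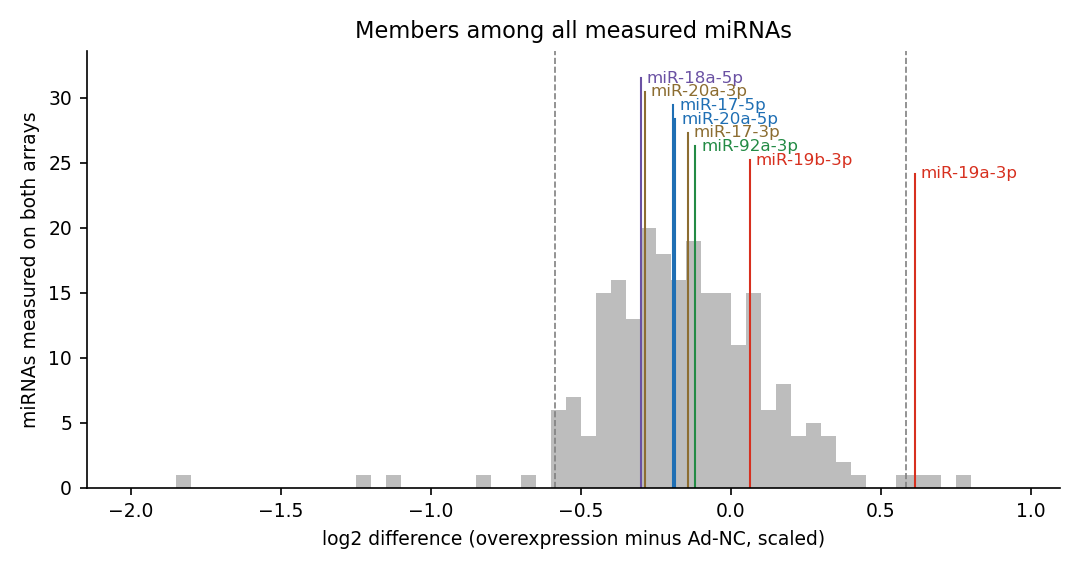
Number of miRNAs (vertical axis) by scaled log2 difference of overexpression minus Ad-NC (horizontal axis) for the 229 measured miRNAs, with a coloured line at each measured member and dashed lines at 1.5-fold. Red lines mark the miR-19 pair; miR-19a-3p at 0.61 stands apart from the other 7 members, which lie between −0.30 and 0.06.

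miR-19a-3p was read by a pair of probes of different brightness. The brighter probe gave spot signals from 386 to 889.8 with a median of 638 with Ad-NC (10 spots), and from 479 to 1191 with a median of 975 with overexpression (10 spots). Its dimmer probe gave 40.5 to 136 with a median of 79.9 with Ad-NC (9 spots) and 104 to 256 with a median of 185 with overexpression (10 spots). The ranges of both probes overlap between the arrays, but 6 of the 10 spots of the brighter probe and 8 of the 10 spots of the dimmer probe on the overexpression array were brighter than every Ad-NC spot of that probe. The log2 differences were 0.32 (combined SD between spots 0.59) and 0.91 (0.63), so the miRNA's own difference of 0.61 equals its combined SD of 0.61.

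That SD counts the spread between the spots of a probe on each array, the source of which was not tested. Both arrays print a probe's spots at the same grid positions, so each spot can be set against the spot at its own position on the other array, a comparison chosen after the data were seen. miR-19a-3p was higher with overexpression at 19 of 19 positions, before and after scaling. On the scaled log2 scale the difference ran from 0.08 to 0.52 over the 10 positions of the brighter probe, with a mean of 0.32 and an SD of 0.18. At the 9 positions of the dimmer probe it ran from 0.45 to 1.40, with a mean of 0.91 and an SD of 0.31. Of all 393 measured probes, 17 (4.33%) were higher at every position after scaling, the 2 probes of miR-19a-3p among them, and 143 (36.4%) were lower at every position.

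The spots of the miR-19 pair were bright or dim at the same places on both arrays. Over the positions of a probe, the correlation between the arrays' log2 signals was 0.91 and 0.78 for the brighter and the dimmer probe of miR-19a-3p, and 0.90 and 0.89 for those of miR-19b-3p, beside a median of 0.33 over the 393 probes. A correlation of at least 0.75 was found for 55 of the 393 probes (14%). It was not particular to the miR-19 pair: the brighter probe of miR-18a-5p had 0.91, and the probes of miR-106b-5p had 0.96 and 0.98. The probes of miR-92a-3p, in contrast, had 0.22 and −0.27. These are descriptions over 9 or 10 positions that share a slide and a scan, not over samples. The dimmest spot of each miR-19a-3p probe sat at the same position on both arrays, in column 3 of the 164 columns of the grid. Both probes of miR-18a-5p, the brighter one of miR-19b-3p and the dimmer one of miR-20a-5p also shared their dimmest position. The other measured probes of members did not. Taking the difference position by position brought the SD of miR-19a-3p from 0.61 to 0.25 and that of miR-19b-3p from 0.61 to 0.24. The median over the measured probes went from 0.23 to 0.17. These SDs are taken within a probe and leave out the disagreement between probes. Those probes differed, with 0.32 and 0.91 for miR-19a-3p and −0.27 and 0.39 for miR-19b-3p.

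**Figure D2:**
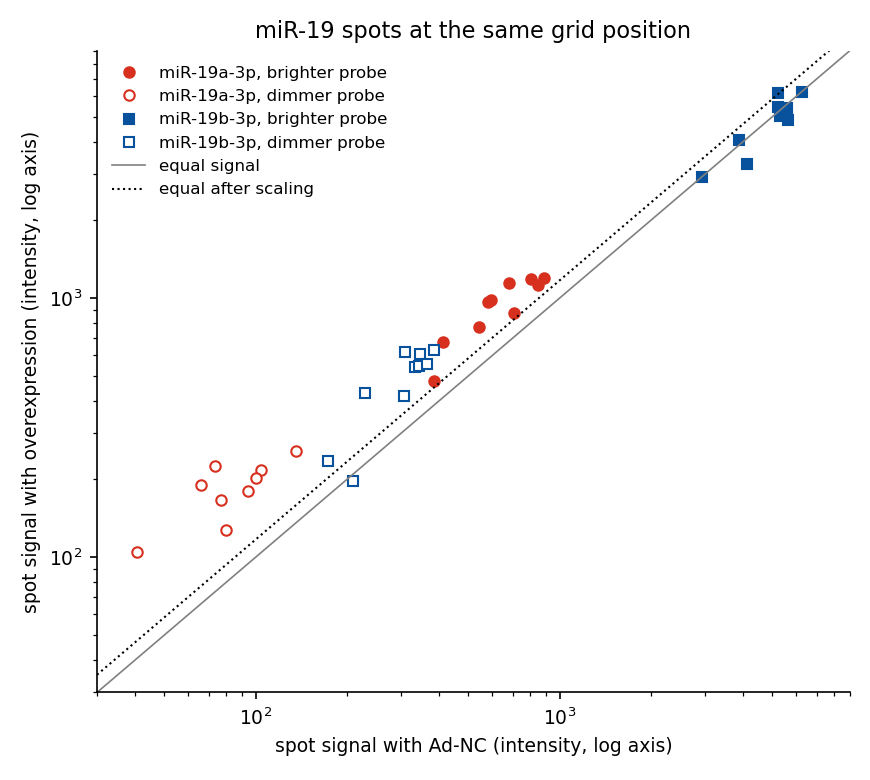
Spot signal (intensity, log axes) with overexpression against that with Ad-NC at the same grid position, for both probes of miR-19a-3p (circles) and miR-19b-3p (squares), with lines for equal signal before and after scaling. All 19 positions of miR-19a-3p lie above both lines, whereas the brighter probe of miR-19b-3p (filled squares) lies mostly below the scaled line and its dimmer probe mostly above it.

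miR-19b-3p, with the same seed and 1 base of difference, did not reach the threshold: its log2 difference was 0.06 (combined SD 0.61). The brighter probe ran from 2935 to 6264 with Ad-NC (median 5264) and from 2937 to 6222 with overexpression (median 5122), 10 spots each, and these ranges all but coincide. Its dimmer probe ran from 173 to 384 with Ad-NC (median 322) and from 196 to 631 with overexpression (median 543). Before scaling, 8 of 10 overexpression spots of this probe were brighter than every Ad-NC spot. The scaled log2 differences of the probes had opposite signs, −0.27 with an SD over positions of 0.16 and 0.39 with an SD of 0.31. After scaling, 1 of 10 positions of the brighter probe and 9 of 10 of the dimmer probe were higher with overexpression. Set against each other, miR-19a-3p exceeded miR-19b-3p by 0.55 on the log2 scale, with a combined SD of 0.86 between spots and of 0.35 over positions. The brighter probes alone gave 0.58 and the dimmer ones alone 0.52. Brighter and dimmer are ranks within a miRNA, however, and the probes set against each other here differed in signal. Nearest in signal were the brighter probe of miR-19a-3p (mean 645 with Ad-NC) and the dimmer one of miR-19b-3p (mean 300). Their differences were 0.32 and 0.39, so on these probes miR-19a-3p was not the higher. Whether the gap between the miRNAs depends on probe brightness was not tested. Cross-hybridisation between miR-19a-3p and miR-19b-3p was not tested either, and the data used hold no probe sequences.

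**Figure D3:**
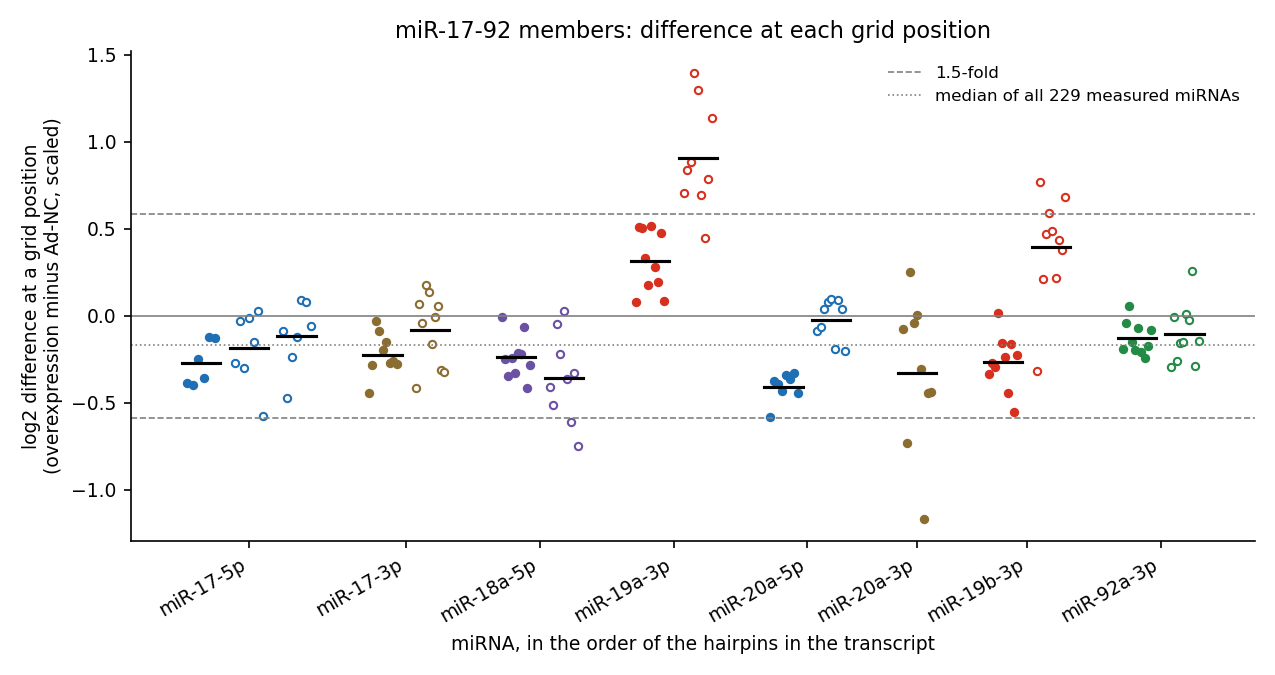
Scaled log2 difference of overexpression minus Ad-NC at each grid position (points), for every measured probe of the 8 members in the order of their hairpins; filled points mark the brightest probe of a miRNA, open points its dimmer probes, short bars the mean, and dashed lines 1.5-fold. All points of miR-19a-3p are above 0, and the probes of miR-19b-3p lie on either side of it.

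The probes of the miR-19 pair disagreed more than those of most miRNAs. Among the 157 miRNAs with several measured probes, the difference of the dimmest probe exceeded that of the brightest by a median of 0.06 (SD over miRNAs 0.23). For miR-19b-3p it exceeded it by 0.66, the 4th highest of 157, and for miR-19a-3p by 0.59, the 5th highest. These 2 were among 5 of 157 miRNAs (3.18%) in which this gap was at least 1.5-fold. Of the other members, miR-20a-5p had a gap of 0.39 (place 15), miR-17-5p 0.16, miR-17-3p 0.12, miR-92a-3p 0.02 and miR-18a-5p −0.13. Probes of opposite sign occurred in 30 of the 157 miRNAs (19.1%), among them miR-19b-3p and miR-20a-5p. Which probe of the pair follows the amount of RNA was not tested.

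**Figure D4:**
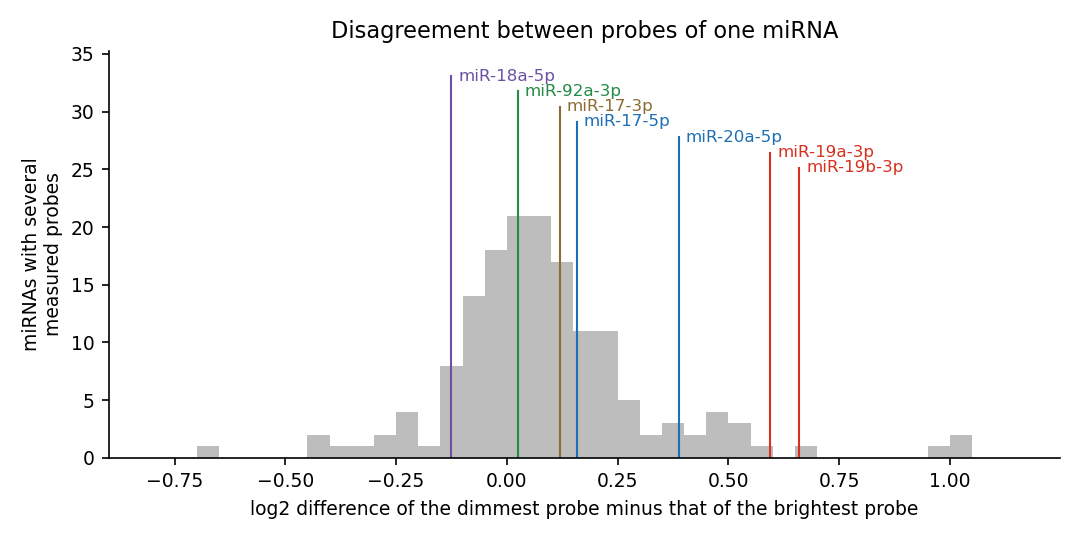
Number of miRNAs (vertical axis) by the log2 difference of the dimmest probe minus that of the brightest probe (horizontal axis), for the 157 miRNAs with several measured probes, with a coloured line at each of the 7 members among them. The miR-19 pair lies at 0.59 and 0.66, against a median of 0.06.

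The miR-17 seed (AAAGUGC), carried by miR-17-5p and miR-20a-5p, had a mean log2 difference of −0.19, and both miRNAs were within 0.01 of each other. The 3 probes of miR-17-5p went from medians of 4416, 1388 and 469 with Ad-NC to 4568, 1437 and 539 with overexpression, and their spot ranges overlapped. Its scaled difference was −0.19 (combined SD 0.23), with probes between −0.27 and −0.11, and 3 of 20 positions were higher after scaling. For miR-20a-5p the probes differed. The brighter one ran from 5552 to 6272 with Ad-NC (8 spots) and from 4674 to 6243 with overexpression (9 spots), and was lower at each of its 8 shared positions even before scaling. Its dimmer probe ran from 2021 to 2885 (10 spots) and from 2532 to 3272 (9 spots), and was brighter at 9 of 9 positions before scaling and at 5 of 9 after it. The miRNA's difference was −0.18 (combined SD 0.18), from probes at −0.38 and 0.01.

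The miR-19 seed (GUGCAAA) exceeded the miR-17 seed by 0.53 on the log2 scale, with a combined SD of 0.64 between spots and of 0.29 over grid positions. This is a gap between members of the cluster, of which miR-19b-3p can also come from MIR19B2 on the X chromosome. miR-19a-3p carries most of the gap, since the seed's mean of 0.34 lies between 0.06 and 0.61. The gap is smaller than the first SD and larger than the second, which rests on a pairing chosen after the data were seen. Neither SD counts the disagreement between probes of a miRNA, which was 0.59 for miR-19a-3p and 0.66 for miR-19b-3p. The miRNAs of the miR-19 seed hold less G and C (34.8% in miR-19a-3p, 39.1% in miR-19b-3p) than the median measured miRNA (52.4%). Of the other members, miR-20a-3p holds 36.4% and miR-20a-5p 39.1%. Across the 198 measured miRNAs with a RefSeq sequence, the correlation of the log2 difference with the GC content was 0.02 and that of the combined spot SD with it −0.38, as a description over miRNAs that share the arrays.

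miR-18a-5p, which shares most of the miR-17 seed, was the lowest member, at −0.30 (combined SD 0.34). Its brighter probe had a median of 413 with Ad-NC against 404 with overexpression, and its dimmer probe 146 against 131. The spots overlapped on both probes, and 1 of 19 positions was higher after scaling. miR-92a-3p, whose targets include the cell death gene BCL2L11, had the smallest spot spread of the members. Its brighter probe ran from 927 to 1040.2 with Ad-NC (median 978) and from 965 to 1137 with overexpression (median 1064), 10 spots each. Its scaled difference was −0.12 (combined SD 0.13), its probes lay 0.02 apart, and 3 of 20 positions were higher after scaling, against 16 of 20 before it.

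By arm, both strands of 1 hairpin were members and were measured for MIR17 and MIR20A. For MIR17 the brighter probe of the 3p strand ran from 241 to 281 with Ad-NC (9 spots) and from 222 to 296 with overexpression (10 spots). The scaled difference of miR-17-3p was −0.14 (combined SD 0.20), which is 0.05 above its 5p partner (SD of this gap 0.30). For MIR20A the single measured probe of miR-20a-3p was dim, from 18.7 to 36.6 with Ad-NC (10 spots) and from 19.1 to 35.5 with overexpression (9 spots), and its second probe was not above background. Its difference was −0.29 (combined SD 0.38), and the 3p arm lay 0.10 below the 5p arm (SD 0.42). In both hairpins the arms thus differed by less than the spread between spots.

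The other strands of the remaining hairpins are not among the members but come from the same transcript. miR-19a-5p, cut from the hairpin of miR-19a-3p, likewise stayed at background, with none of the spots of its 4 probes passing and a brightest spot of 8.40 with Ad-NC and 11.1 with overexpression. The arms of MIR19A therefore cannot be compared. miR-19b-1-5p was measured by 1 of 4 probes, from 33.0 to 56.9 with Ad-NC and from 36.9 to 48.1 with overexpression, 5 spots each. Its difference was −0.31 (combined SD 0.36), lower at 5 of 5 positions, so that miR-19b-3p exceeded its own partner strand by 0.38 (combined SD 0.71, and 0.34 over positions). The signal of miR-19b-3p may include product of MIR19B2, so this does not compare the arms of MIR19B1 alone. miR-92a-1-5p was well above background with overexpression alone, by 1 probe with 3 of its spots marked against 1 with Ad-NC. The mean signal of that probe was lower there, 17.7 against 19.6, the limits of the arrays differ, and no fold is given.

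The paralogue clusters, MIR106B-MIR93-MIR25 on chromosome 7 and MIR106A-MIR363 on the X chromosome, hold copies of these hairpins with the same or nearly the same seeds. Of 12 miRNAs listed from them and from other seed mates, 5 were measured on both arrays, 6 were not above background on either, and miR-106a-5p, which differs from miR-17-5p by C1A, was not analysed here. None of the 5 passed 1.5-fold, and their median log2 difference was −0.15. miR-106b-5p carries the miR-17 seed in this sequence, and of the miRNAs described here its difference had the smallest spread over positions.
hsa-miR-106b-5p: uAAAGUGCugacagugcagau
Its brighter probe ran from 2279 to 2748 with Ad-NC and from 1757 to 2359 with overexpression, and the dimmer one from 1079 to 1358 and from 952 to 1286. The scaled difference was −0.43 (combined SD 0.16), lower at 18 of 18 positions before and after scaling, with an SD over positions of 0.05 and 0.04 for its probes. In contrast, miR-93-5p lay at −0.15 (0.34) and miR-20b-5p, from 1 of its 2 probes, at 0.14 (0.42). The 5 measured miRNAs with this seed, of 7 on the array, thus spread from −0.43 to 0.14.

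The copy of miR-18a-5p on the X chromosome, miR-18b-5p, differs from it by A20U and has this sequence.
hsa-miR-18b-5p: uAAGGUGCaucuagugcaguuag
It was lower than miR-18a-5p in its difference, at −0.57 (combined SD 0.12) from 1 of its 3 probes. The next brightest probe did not count as measured, with a mean of 22.9 with Ad-NC and 21.4 with overexpression. The measured probe had 6 spots on each array. Those spots ran from 341 to 384 with Ad-NC and from 258 to 310 with overexpression, and the ranges do not overlap. This is 1.49-fold lower, just inside the 1.5-fold threshold. miR-25-3p, with the seed of miR-92a-3p, lay at 0.13 (0.42), with −0.07 on its brighter and 0.34 on its dimmer probe.

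Under 15 other ways of processing the values, miR-19a-3p stayed the highest of the measured members in 15 of 15 and above 0 in 15 of 15, with a log2 difference from 0.30 to 1.097. It passed 1.5-fold in 11 of the 15. Relative to the median of all measured miRNAs it lay between 0.51 and 1.05 higher. miR-19b-3p was second in 12 of 15 and lost that place with the total signal per miRNA, with the deposited log2 values and with the brightest probe alone, where it was at −0.04, −0.31 and −0.27. The gap between the miR-19 and the miR-17 seed stayed above 0 throughout, from 0.34 to 0.70. Scaling by another constant, or by none, shifts every member alike and could not change the order of the members or this gap. The other filters on dim probes could not change the lead of miR-19a-3p over miR-19b-3p, 0.55, either. Every spot kept for the probes of this pair was well above background, so each filter used the same probes. The total signal and the deposited values gave miR-19a-3p the same lead over the second member, 0.52, so they are not separate checks of the order.

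**Figure D5:**
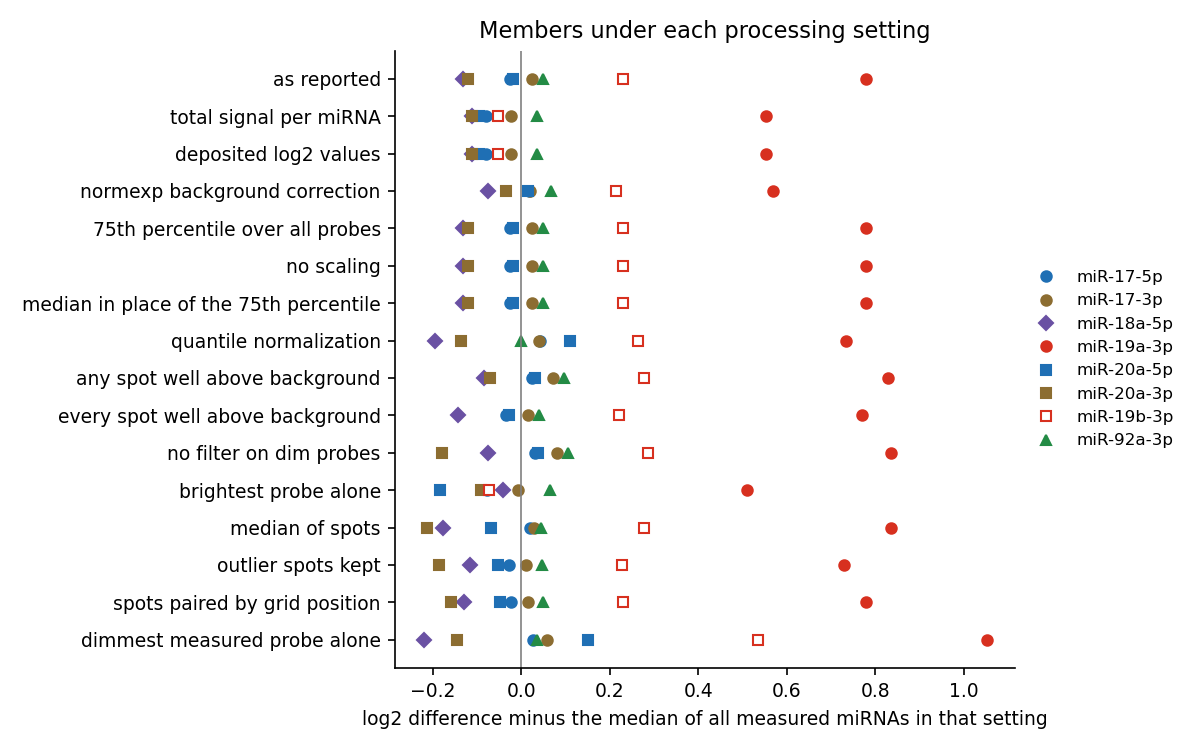
Log2 difference of each measured member minus the median of all measured miRNAs (horizontal axis) as reported and under the 15 other ways of processing (rows). miR-19a-3p (red circles) lies at 0.51 or more in every row, and miR-19b-3p (open red squares) joins the other members in the rows for total signal, deposited values and the brightest probe alone.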

How the data were processed

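The authors read both arrays with Agilent Feature Extraction (version 10.10 per the labels, 11.5.1.1 per the file headers) and deposited background-subtracted spot intensities, not normalized between arrays. They also deposited a table of log2 values per miRNA, described as normalized with GeneSpring GX; the kind of normalization is not given in the sources used here. The array grid is annotated to hg19, and no coordinates were taken from it.

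Control spots and spots marked as outliers were left out (5 of the members' 180 spots with Ad-NC, 4 with overexpression). No spot was saturated. Spots under the array's limit were raised to it, log2 values were averaged per probe, and the 75th percentile over measured probes was subtracted. The combined SD is the square root of the summed spot variances of both arrays. The SD over positions is that of differences between spots at the same grid position. Both are taken within a probe, and a miRNA with several measured probes is given the root mean square over them. Disagreement between its probes is therefore not counted. A measured miRNA had at least 1 probe with at least 50% of spots well above background on both arrays. Every member was named, with the other strands and the measured relatives on the list. The members and lists were chosen with earlier results of these data known. The steps were tested on simulated data with 2-fold changes, less spot noise than miR-19a-3p had and no effect of grid position. That test therefore does not cover a difference such as that of miR-19a-3p. RefSeq held 2248 of the 2549 miRNA names. Scripts ran in Python 3.11.15 (numpy 2.4.6, pandas 2.3.3, matplotlib 3.10.9), and the normexp alternative (offset 50) in limma 3.58.1 under R 4.3.3. The alternatives cover the signal, background correction, scaling, filter on dim probes, probes averaged, spots averaged and fold.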

Additional observations from a re-analysis of the deposited data

How the results depend on the processing

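Of 16 alternatives, the pairing of spots by grid position and the dimmest measured probe alone were chosen after seeing the data. The count of members at least 1.5-fold higher, 1 as reported, was 0 with the total signal per miRNA, with the deposited log2 values, with the normexp background correction and with the brightest probe alone, and 0 at a 2-fold threshold. Over all measured miRNAs, 3 of 229 were past 1.5-fold higher as reported, against 22 of 279, 8 of 279, 1 of 229 and 2 of 229 under the first 4 of these, so by total signal miR-19a-3p fell short (0.56) while more miRNAs passed. The place of miR-19a-3p from the highest difference, 3 as reported, ran from 2 to 23 over the alternatives. The median log2 difference of the measured members became 0.32 when all probes, dim ones included, gave the 75th percentile, which moves every miRNA alike, and the median of all miRNAs became 0.32 as well; without scaling that median was 0.06. The median of the members minus that of all miRNAs stayed between −0.07 and 0.06, and 0 members were 1.5-fold lower under any alternative. Of 119 single values of members under the alternatives, 102 stayed within the combined spot SD of the value as reported. This is a wide measure for the miR-19 pair, whose SD was 0.61 each. All 15 values of miR-19b-3p count as within it, although they ran from −0.31 to 0.55. For miR-20a-3p no value was had where every spot had to be well above background. Without the filter on dim probes, the 229 measured miRNAs were kept and all their probes averaged. Slide and scan were the same for both arrays and could not be entered as a block. No paired analysis was possible because there was a single array for each condition. The number of arrays limits the precision, and miR-18a-3p and miR-19a-5p were under the arrays' limits.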
